A study of Mus musculus with 19 samples.

Results

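Glycolysis and hypoxia-response genes were followed through 6 groups of mouse CD8 T lymphocytes on whole-transcript microarrays. The list holds 38 gene symbols, and a symbol was measured through a probe set annotated to that gene alone, the brightest over the 19 arrays where several existed. This rule gave 34 measured genes among the 19938 genes on the array. Eno1 and Gpi1 had no such probe set, Gapdh was covered by 25 probe sets that it shares with near-identical copies, and Ero1l is annotated under its current symbol Ero1a, whose values are given apart from the count of 34.

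Glycolysis breaks glucose down to pyruvate, and lactate dehydrogenase turns pyruvate into lactate, which leaves the cell through monocarboxylate transporters. Hypoxia-inducible factors (HIF) raise the transcription of many of these enzymes and of a set of stress genes, and the prolyl hydroxylases encoded by Egln1 and Egln3 mark HIF-1alpha for degradation when oxygen is present. Dividing effector T cells are known for high glycolysis and for HIF-1alpha protein made in response to antigen receptor signals as well as low oxygen, whereas resting T cells take up and ferment less glucose.

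The study compared naive, effector and long-lived CD8 T cells, with and without Stat5ca, a constitutively active Stat5 transcription factor introduced by transduction. The 16 TCRP1A arrays came from TCRP1A transgenic Rag-1-/- mice on the B10.D2 background, which carry a single T cell receptor and lack recombination in their own lymphocytes. The groups were naive peripheral cells (4 arrays, numbered 33 to 36), control effector cells at 72 h after activation with cognate antigen (4 arrays, 1 to 4), GFP+ Stat5ca cells at 72 h (2 arrays, 9 and 10), control cells recovered from congenic hosts at day 18 (array 30) or day 120 (array 32), and Stat5ca cells recovered from hosts at day 20 (4 arrays, 11 to 14). The last group was T-BetKO cells carrying Stat5ca, recovered at day 14 (arrays 39 and 40) or day 54 (array 41), activated with anti-CD3/CD28, labelled C57BL/6 as strain and B10.D2 as background, and without the Rag-1-/- label. All transferred cells came from spleen and lymph nodes. Control cells are not described as transduced with an empty vector, and GFP+ is written in the labels of the 72 h Stat5ca cells. T-BetKO cells differ from the TCRP1A Stat5ca cells in genotype, strain, activation, day and labelling kit. These factors cannot be told apart from Stat5ca or from T-bet loss. No label ties the arrays within a group to separate mice or cultures. The p-values below therefore rest on array-to-array spread alone, which may be technical.

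Values are log2 signals, array medians lay between 7.69 and 7.89, and 7.30 served as background, the 95th percentile of olfactory and vomeronasal receptor genes. Stat5a read 10.03 to 10.62 in naive and control arrays, 12 and 12.12 in Stat5ca cells at 72 h, 11.54 to 11.81 in transferred Stat5ca cells and 10.86 to 11.06 in T-BetKO Stat5ca cells. Tbx21, which encodes T-bet, read 8.18 to 8.34 in T-BetKO arrays and 11.77 to 11.97 in transferred Stat5ca arrays. A list of 11 measured T cell markers averaged between 11.74 and 12.70 on every array, with no gene under background. The 19 measured macrophage and monocyte markers averaged 7.89, 11.56, 8.80 and 11.39 on naive arrays 33 to 36, 8.09 to 8.76 in control and 7.01 and 6.92 in Stat5ca cells at 72 h, 12.26 and 12.08 in transferred control cells, 9.40 to 10.27 in transferred Stat5ca cells, and 12.08, 11.98 and 10.43 on arrays 39, 40 and 41. RNA integrity numbers were 8 to 10 except 7 and 6 on arrays 39 and 40.

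The promoters of 5 genes are shown as examples: Bnip3, Pgk1, Ldha and Egln3 rose at 72 h and fell after transfer, and Pdk1 took another course. Each is the 250 bases before the most upstream RefSeq start in GRCm38.p6, 5′ to 3′ on the gene's strand, with capitals marking ACGTG or GCGTG on either strand, the core letters of the hypoxia-response element, and overlapping matches run together. The windows are chr7:138909507-138909756 on the minus strand for Bnip3, chrX:106186850-106187099 on the plus strand for Pgk1, chr7:46845554-46845803 on the plus strand for Ldha, chr12:54203875-54204124 on the minus strand for Egln3, and chr2:71872974-71873223 on the plus strand for Pdk1. They hold 5, 2, 5, 1 and 1 matches in that order. The windows of Aldoa, Mxi1, Pkm, Tpi1 and Vegfa, which also rose at 72 h, hold 0. Sequence outside the 250 bases, or at other start sites, was not searched.
Bnip3: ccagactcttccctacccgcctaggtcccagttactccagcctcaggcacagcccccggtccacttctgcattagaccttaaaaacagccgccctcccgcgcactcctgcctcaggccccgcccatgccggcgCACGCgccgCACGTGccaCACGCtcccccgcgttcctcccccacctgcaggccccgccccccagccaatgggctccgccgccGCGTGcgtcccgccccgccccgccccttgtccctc
Pgk1: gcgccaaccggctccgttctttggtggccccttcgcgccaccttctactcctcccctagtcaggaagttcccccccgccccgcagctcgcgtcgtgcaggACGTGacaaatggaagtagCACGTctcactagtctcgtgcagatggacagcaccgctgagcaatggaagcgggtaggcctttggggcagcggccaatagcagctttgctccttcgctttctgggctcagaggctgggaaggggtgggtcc
Ldha: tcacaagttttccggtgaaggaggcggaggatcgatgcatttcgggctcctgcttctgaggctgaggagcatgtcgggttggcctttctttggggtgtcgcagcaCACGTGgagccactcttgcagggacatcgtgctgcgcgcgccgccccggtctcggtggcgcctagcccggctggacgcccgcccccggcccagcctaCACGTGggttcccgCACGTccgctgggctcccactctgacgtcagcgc
Egln3: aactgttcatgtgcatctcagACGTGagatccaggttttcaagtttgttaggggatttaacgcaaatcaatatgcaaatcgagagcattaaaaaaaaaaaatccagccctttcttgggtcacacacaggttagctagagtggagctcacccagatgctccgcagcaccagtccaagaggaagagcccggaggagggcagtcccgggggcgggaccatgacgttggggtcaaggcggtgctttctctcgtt
Pdk1: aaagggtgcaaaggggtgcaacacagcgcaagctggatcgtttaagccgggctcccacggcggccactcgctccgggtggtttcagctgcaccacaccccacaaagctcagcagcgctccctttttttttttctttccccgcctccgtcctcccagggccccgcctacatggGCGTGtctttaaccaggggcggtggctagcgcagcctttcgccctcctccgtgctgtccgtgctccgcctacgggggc
Among the 31 measured members with a promoter entry, 24 (77.4%) held ACGTG or GCGTG, against 46.4% of 15614 tested genes with an entry. ACGTG alone was present in 17 (54.8%) against 18.4%, and the palindrome CACGTG, which contains ACGTG on both strands and is also the core of MYC sites, in 5 (16.1%) against 7.0%. Median GC content was 64.0% in the members' windows and 56.4% in those of the tested genes. These are matches of letters and not measured binding, and Slc2a3, Bnip3l and Ndrg1 were not searched.

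Activation for 72 h raised most of the pathway in control cells: 30 of the 34 genes rose and 0 fell, with a median change of 1.30 on the log2 scale against -0.089 over all genes. Over all genes 22.0% rose and 24.9% fell. A rise of at least 2-fold (1 log2 unit) was seen for 22 of the 34, against 4.79% of all genes, and the arrays of the groups did not overlap for 28 of the 34, against 34.5% of all genes called in either direction without overlap. The mean over the 34 genes was 9.66 to 9.93 on naive arrays and 11.04 to 11.44 on control arrays at 72 h. Here and below, rose and fell mean an adjusted p under 0.05 in limma, with Benjamini-Hochberg adjustment over all 19938 genes, and ± on a change is its standard error. In these bulk samples, fewer cells of a type and less RNA per cell cannot be told apart.

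**Figure D1:**
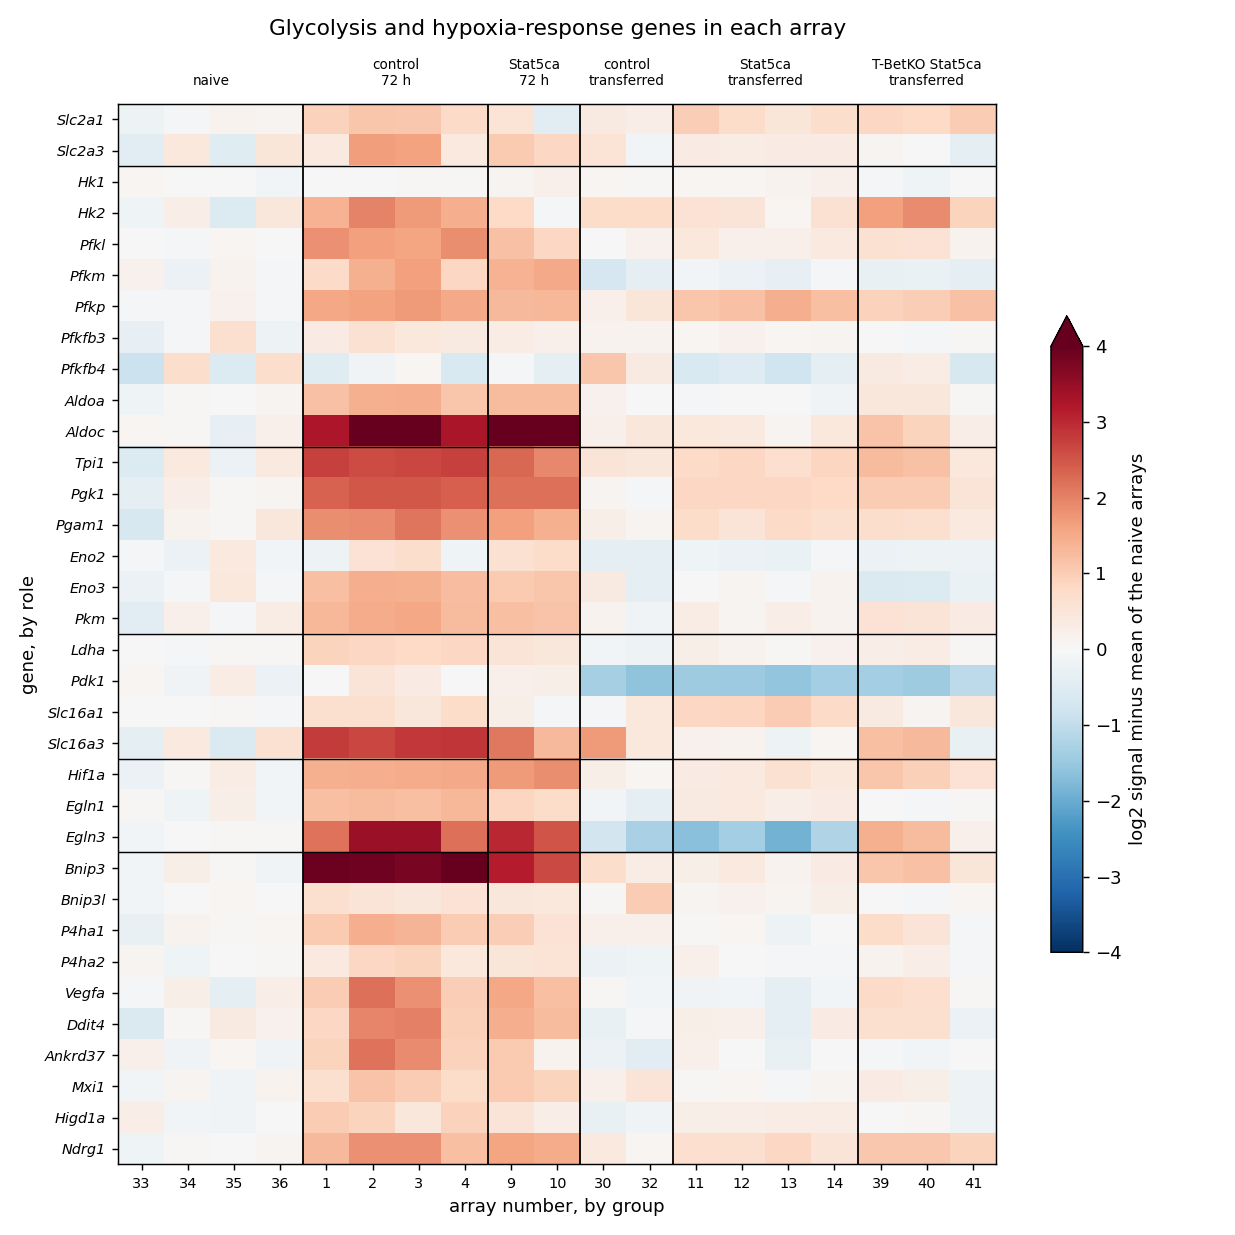
Each row is 1 of the 34 genes, grouped by role, and each column 1 of the 19 arrays, grouped by sample; colour is the log2 signal minus the gene's mean over the 4 naive arrays, with values above 4 drawn at the end of the scale. Most rows are red at 72 h and pale in naive and transferred cells, Pdk1 is blue in all transferred arrays, and control arrays 2 and 3 are darker than 1 and 4 for genes such as Vegfa and Ankrd37.

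Both glucose transporters rose at 72 h. Slc2a1 (GLUT1), the main carrier of activated T cells, read 10.93, 11.09, 11.26 and 11.24 in naive cells and 12.04, 12.24, 12.20 and 11.91 in control effector cells. The groups did not overlap, and the change was 0.97 ± 0.17 (adjusted p = 0.000311). Slc2a3 (GLUT3), a high-affinity carrier, read 10.41, 11.24, 10.33 and 11.30 in naive cells and 11.21, 12.49, 12.44 and 11.20 at 72 h. Its groups overlapped, naive arrays 34 and 36 being level with control arrays 1 and 4, and the change of 1.02 ± 0.30 (adjusted p = 0.0136) became 0.38 (adjusted p = 0.241) without control arrays 2 and 3, and 0.80 (adjusted p = 0.0503) without array 2 alone.

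In upper glycolysis, from glucose to the triose phosphates, 7 of 9 measured genes rose. Hk2, the inducible hexokinase, read 7.71, 8.15, 7.32 and 8.35 in naive cells and 9.28, 9.86, 9.59 and 9.34 at 72 h, without overlap (1.63 ± 0.22). The phosphofructokinase genes Pfkl, Pfkp and Pfkm rose by 1.72 ± 0.09, 1.59 ± 0.09 and 1.16 ± 0.17. Aldoc, the aldolase best known from brain, went from 7.94, 7.91, 7.53 and 8.07 to 11.09, 12.99, 13 and 11.14, the largest rise of the 34 at 4.19 ± 0.36, while the housekeeping aldolase Aldoa rose by 1.28 ± 0.09. Pfkfb3 and Pfkfb4 make fructose 2,6-bisphosphate, the activator of phosphofructokinase, and they stood apart. Pfkfb3 read 9.29, 9.54, 10.27 and 9.41 in naive cells and 9.97, 10.23, 10.04 and 9.98 at 72 h; the groups overlapped through naive array 35, and the change of 0.43 ± 0.15 (adjusted p = 0.0346) missed the threshold when any 1 of naive arrays 33, 34 and 36 or control arrays 2, 3 and 4 was left out, the adjusted p then lying between 0.0505 and 0.114. Pfkfb4 did not pass the test (-0.29).

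Hk1, the constitutive hexokinase, has 2 probe sets of its own that gave different readings. The brighter one, used by the rule, is annotated through 1 database sequence and 0 RefSeq transcripts, and read 13.52 to 13.71 in naive cells and 13.61 to 13.68 at 72 h (0.03). The other, annotated through 8 database sequences of which 2 are RefSeq transcripts, read 10.44, 10.22, 10.63 and 10.29 in naive cells and 10.75, 10.79, 10.83 and 10.73 at 72 h. The latter groups did not overlap, and the change was 0.38 ± 0.08 (adjusted p = 0.00179 over 21789 probe sets). Each has a database sequence that is also attached to 16 probe sets annotated to both Hk1 and Rpl17, a ribosomal protein gene, and for the brighter one it is the only sequence. Results for Hk1 below give both.

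In lower glycolysis, from the triose phosphates to pyruvate, 5 of 6 measured genes rose. Pgk1, the first enzyme that makes ATP, read 10.78, 11.43, 11.21 and 11.28 in naive cells and 13.54, 13.65, 13.66 and 13.58 at 72 h, and Tpi1, triose phosphate isomerase, read 9.76, 10.70, 10.06 and 10.69 against 13.05, 12.90, 12.96 and 13.04. Neither gene's groups overlapped, with changes of 2.44 ± 0.10 and 2.69 ± 0.17. Pgam1 (phosphoglycerate mutase), Pkm (pyruvate kinase) and Eno3 (the muscle enolase) rose by 1.93 ± 0.17, 1.41 ± 0.13 and 1.33 ± 0.15. The neuronal enolase Eno2 stayed near background, at 7.31 to 7.92 in naive cells and 7.32, 8.12, 8.25 and 7.35 at 72 h, and did not pass the test (0.23). The 25 probe sets that Gapdh shares with its copies were 0.36 to 0.50 higher at 72 h, a description without a test.

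Of the genes that handle pyruvate and lactate, 3 of 4 rose. Ldha, the lactate dehydrogenase subunit that favours lactate, was already bright and moved from 12.95, 12.89, 13.03 and 13.03 to 13.85, 13.81, 13.78 and 13.79 (0.83 ± 0.06). Slc16a3 (MCT4), the lactate exporter of glycolytic cells, rose further, from 8.44, 9.22, 8.26 and 9.45 to 11.65, 11.50, 11.66 and 11.71 (2.78 ± 0.28), and Slc16a1 (MCT1), which carries lactate both ways, by 0.61 ± 0.10. None of these groups overlapped. Pdk1, the kinase that shuts pyruvate dehydrogenase and so keeps pyruvate out of the mitochondrion, read 10.95, 10.72, 11.17 and 10.62 in naive cells and 10.84, 11.37, 11.20 and 10.88 at 72 h. The groups overlapped and the change of 0.21 did not pass the test (adjusted p = 0.21). Without control arrays 1 and 4 it was 0.42 ± 0.14 and passed (adjusted p = 0.0316).

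Hif1a and both hydroxylase genes rose. Hif1a read 10.82, 11.11, 11.36 and 10.96 in naive cells and 12.48, 12.53, 12.54 and 12.57 at 72 h (1.47 ± 0.10), and Egln1 rose by 1.25 ± 0.09. Egln3 read 8.60, 8.72, 8.76 and 8.76 in naive cells and 10.89, 12.17, 12.17 and 10.91 at 72 h (2.82 ± 0.28). Neither Hif1a nor Egln3 overlapped between the groups, and the control arrays of Egln3 lay in pairs, 2 and 3 above 1 and 4.

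All 10 measured hypoxia-response genes rose. Bnip3, a mitophagy receptor and a standard HIF target, read 7.82, 8.17, 7.97 and 7.78 in naive cells and 11.87, 11.83, 11.73 and 11.91 at 72 h (3.90 ± 0.12); its second probe set rose by 2.45. Its relative Bnip3l rose less, by 0.55 ± 0.14. Ndrg1, a stress-induced gene, rose by 1.54 ± 0.13, the angiogenic factor Vegfa by 1.50 ± 0.23, Ankrd37, a small ankyrin repeat gene, by 1.46 ± 0.26, and Ddit4 (REDD1), an inhibitor of mTORC1, by 1.43 ± 0.27. The collagen prolyl hydroxylase subunit P4ha1 rose by 1.21 ± 0.12, the MYC antagonist Mxi1 by 0.88 ± 0.11 and the mitochondrial gene Higd1a by 0.83 ± 0.12. The second Higd1a probe set changed by 0.24 and was not called (adjusted p = 0.0778 over 21789 probe sets). P4ha2 was under background in naive cells and rose by 0.47 counted from it. Ero1a, an oxidase of the endoplasmic reticulum, rose by 1.71 ± 0.14.

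**Figure D2:**
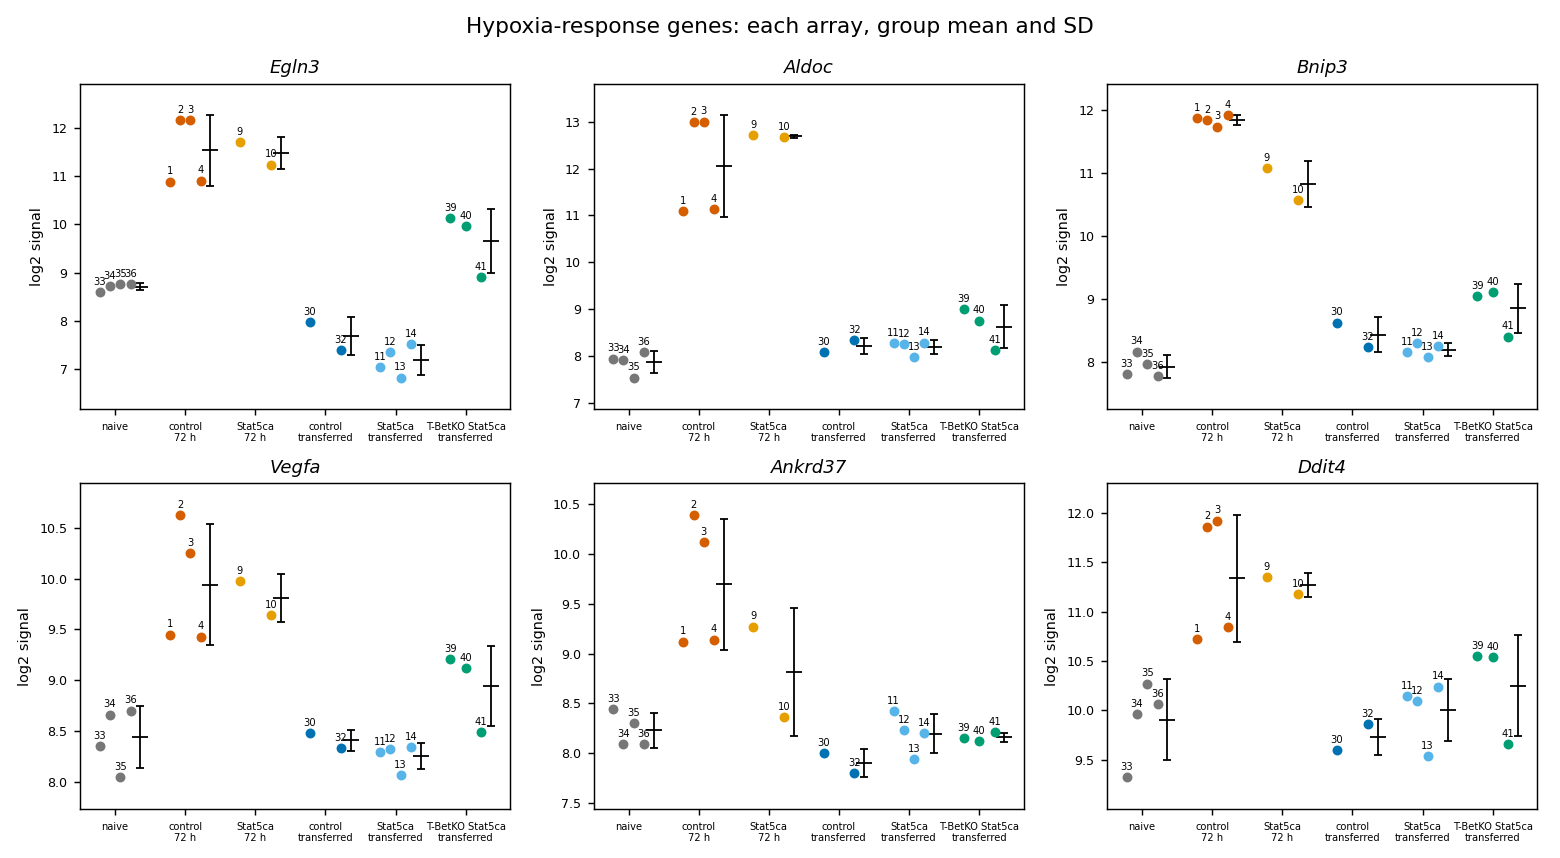
Points are single arrays, labelled by number, for Egln3, Aldoc, Bnip3, Vegfa, Ankrd37 and Ddit4; the vertical axis is the log2 signal and the bars are the group mean and SD (2 to 4 arrays a group). Control arrays 2 and 3 lie above 1 and 4 at 72 h for all but Bnip3. Egln3 in transferred TCRP1A cells lies under its naive level, a difference that was not called for the control cells.

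The 4 control arrays at 72 h differed among themselves for part of the list. Aldoc, Egln3, Vegfa (9.45, 10.63, 10.25 and 9.43 on arrays 1 to 4), Ankrd37 (9.12, 10.39, 10.12 and 9.14), Ddit4 (10.72, 11.86, 11.92 and 10.84) and Slc2a3 were higher on arrays 2 and 3, whereas Bnip3, Pgk1, Tpi1, Hif1a and Ldha were nearly level on all 4. On the same arrays the macrophage and monocyte markers averaged 8.76, 8.09, 8.11 and 8.69 and the T cell markers 12.40, 12.63, 12.65 and 12.39; their part in the difference was not tested. All 6 of Aldoc, Egln3, Vegfa, Ankrd37, Ddit4 and Bnip3 were higher on each control array at 72 h than on any naive array. Of the 34 genes 28 rose against naive cells without control arrays 2 and 3, and 31 without arrays 1 and 4, with Eno2 and Pdk1 among them.

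Other genes of these pathways moved less uniformly. Of 27 further glycolysis, lactate and pyruvate genes, 9 rose and 3 fell, led by the transporter gene Slc2a6 (1.50 ± 0.36) and the ADP-dependent glucokinase gene Adpgk (-1.33 ± 0.20). Pentose phosphate genes rose in 4 of 6, led by transketolase, Tkt (1.03 ± 0.19). HIF pathway regulators rose in 8 and fell in 2 of 12, and Epas1, which encodes HIF-2alpha, rose by 1.08 ± 0.09. Of 27 further hypoxia-response genes 18 rose and 0 fell, led by the collagen lysyl hydroxylase gene Plod2 (3.00 ± 0.16). Glucose-sensing and MYC-network factors rose in 2 and fell in 2 of 11.

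The comparison of Stat5ca with control cells at 72 h asked what active Stat5 changed in effector cells, and it used the same control arrays as above. Of the 34 genes 7 fell and 0 rose, against 3.35% and 2.37% of all genes, with a median change of -0.20 against 0.040. The 7 were Hk2, Bnip3, Slc2a1, Pfkl, Slc16a1, Egln1 and Ldha. Most of the list therefore had no called difference, and the interval of several genes was wide: Egln3, at 11.71 and 11.24, differed by -0.06 ± 0.34 and Aldoc, at 12.71 and 12.67, by 0.64 ± 0.44. Hif1a, at 12.78 and 12.92, lay above all 4 control arrays, yet its change of 0.32 missed the threshold (adjusted p = 0.16). The difference among the control arrays bears on this comparison: without control arrays 2 and 3, 7 genes fell and 3 rose, namely Aldoc (1.58 ± 0.16, adjusted p = 7.07e-05), Eno2 (0.87 ± 0.15) and Pfkm (0.65 ± 0.14), Slc2a1 missing the threshold (-0.78, adjusted p = 0.0526), and without arrays 1 and 4 instead, 4 fell, with Ankrd37 among them (-1.43 ± 0.24), and 0 rose.

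Hk2 read 8.67 and 7.82 on Stat5ca arrays 9 and 10, below the control range of 9.28 to 9.86 (-1.27 ± 0.27, adjusted p = 0.0142). Slc2a1 read 11.69 and 10.69 against 11.91 to 12.24 (-0.91 ± 0.21, adjusted p = 0.0194), array 10 lying under every naive array. Bnip3 read 11.08 and 10.57 against 11.73 to 11.91 (-1.01 ± 0.15, adjusted p = 0.00161; -0.74, adjusted p = 0.0453, with its second probe set). None of these overlapped, and array 10 was the lower one each time. The other 4 that fell were Pfkl (-0.71 ± 0.11), Slc16a1 (-0.50 ± 0.13), Egln1 (-0.46 ± 0.11) and Ldha, which read 13.49 and 13.42 (-0.35 ± 0.07). Slc16a3 read 10.94 and 10.14, below every control array, with a change of -1.09 that missed the threshold (adjusted p = 0.079). Without array 10, which left 1 Stat5ca array, the calls of all members that fell were lost, as were most calls over all genes. The changes were then -0.84 for Hk2, -0.41 for Slc2a1, -0.76 for Bnip3, -0.53 for Pfkl, -0.37 for Slc16a1, -0.40 for Egln1 and -0.32 for Ldha. Without array 9 most calls over all genes were again lost, and among the members those of Ldha (-0.39), Slc16a1 (-0.64) and Egln1 (-0.53). Slc16a1 was also lost without control array 1, 2 or 4 (-0.50, -0.49 and -0.46, adjusted p = 0.0743, 0.0518 and 0.0873) and Egln1 without control array 4 (-0.44, adjusted p = 0.0605).

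Slc2a3 (11.87 and 11.65), Pfkfb3 (9.93 and 9.84) and Pdk1 (11.06 and 11.11) lay within or next to the control ranges and had no called change. Hk1 read 13.73 and 13.82 with the brighter probe set and 10.83 and 10.77 with the other, without a called change in either. Ero1a fell (-1.06 ± 0.17, adjusted p = 0.00283). Among the further genes, 2 of 27 glycolysis genes, 1 of 6 pentose phosphate genes and 5 of 27 hypoxia-response genes fell and none of these rose, led by Pdk3 (-0.76 ± 0.15), Rpia (-0.52 ± 0.10) and Fam162a (-0.97 ± 0.11). Of the HIF pathway regulators Epas1 fell (-1.27 ± 0.11) and Cited2 rose by 0.88 ± 0.20. Txnip, whose product restrains glucose uptake, rose by 0.81 ± 0.13.

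**Figure D3:**
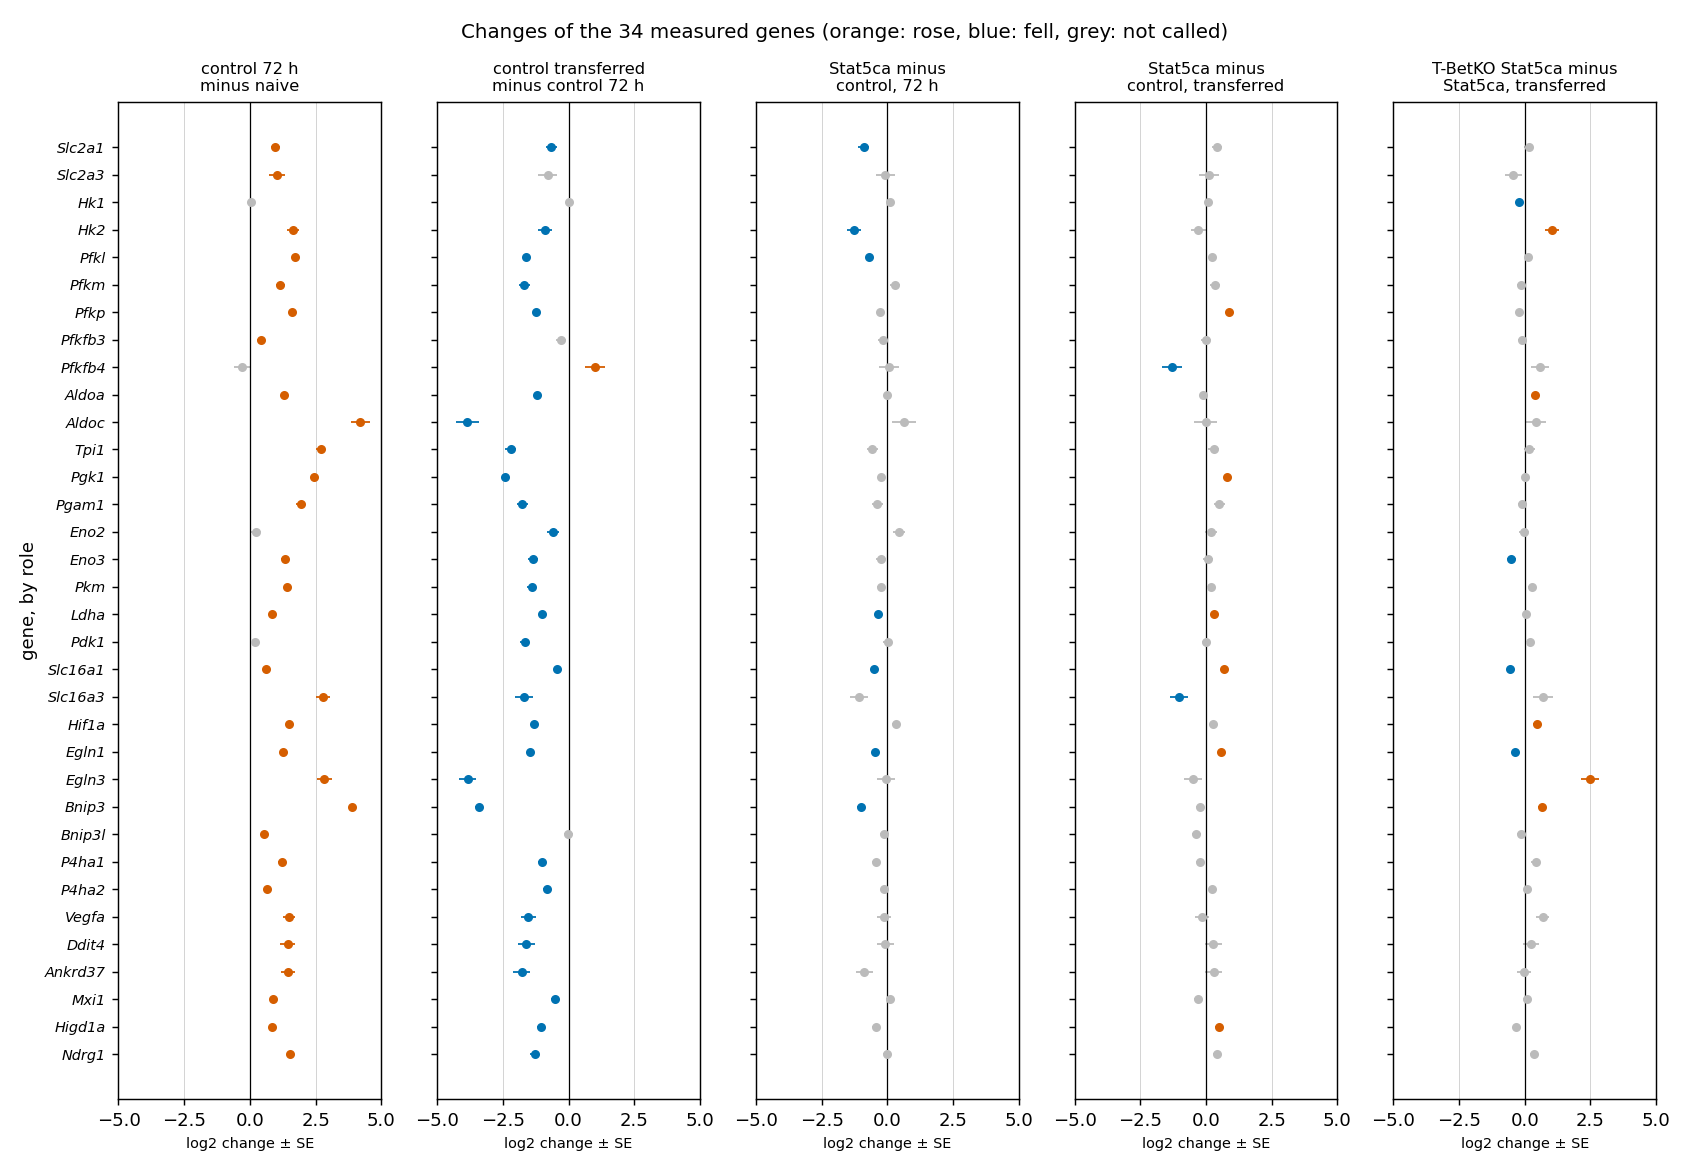
Log2 change with its standard error for each of the 34 genes in 5 comparisons, ordered by role; orange points rose, blue points fell and grey points were not called. The first 2 panels hold 30 rises, and 29 falls with 1 rise, and the others between 7 and 9 called genes.

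Control cells recovered after transfer read lower than at 72 h for most of the list. Between transferred control cells and control effector cells, 29 of 34 genes fell and 1 rose, against 24.4% and 13.1% of all genes, with a median change of -1.30 against -0.037. Falls of at least 2-fold numbered 22, against 5.53% of all genes. Without 1 array at a time the count of 30 called genes lay between 25 and 30. The comparison shares the 72 h control arrays with the one of 72 h against naive cells. Of 11 T cell markers 8 fell in the same comparison (median -0.67), and of 19 macrophage and monocyte markers 17 rose (median 3.20); their part in the falls was not tested.

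Aldoc read 8.08 and 8.33 on arrays 30 and 32 (-3.85 ± 0.44 against 72 h), Egln3 7.97 and 7.40 (-3.85 ± 0.34) and Bnip3 8.63 and 8.24 (-3.40 ± 0.15). All these values lay at least 1 log2 unit below every 72 h array. Pgk1 read 11.28 and 11.11 (-2.42 ± 0.13), Hif1a 11.31 and 11.14 (-1.31 ± 0.12) and Ldha 12.86 and 12.76 (-0.99 ± 0.07). Pdk1, whose change at 72 h was not called with all arrays, read 9.54 and 9.26. It fell against 72 h (-1.67 ± 0.16) and against naive cells (-1.47 ± 0.16, adjusted p = 0.000103), both without overlap. The other Hk1 probe set read 9.82 and 9.80, below every naive array, and fell against 72 h (-0.96, adjusted p = 3.21e-06) and against naive cells (-0.58, adjusted p = 0.002), while the brighter one read 13.70 and 13.68 and did not change. Of Hk1 the direction thus rests on the probe set.

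Slc2a1 read 11.49 and 11.38 and Hk2 8.62 and 8.61, below every 72 h control array and above every naive array. Both fell against 72 h, Slc2a1 with a change of -0.67 ± 0.21 (adjusted p = 0.0183) and Hk2 with -0.90 ± 0.27 (adjusted p = 0.0159). With 1 transferred array left these falls missed the threshold, Slc2a1 at -0.72 (adjusted p = 0.0641) without array 30 and -0.61 (0.124) without array 32, and Hk2 at -0.90 each time (0.0795 and 0.0854). Slc2a3 read 11.36 and 10.71 and its change of -0.80 missed the threshold (adjusted p = 0.11). Pfkfb3, at 9.76 and 9.76, had no called change. Pfkfb4, at 9.48 and 8.72, was the gene that rose (1.02 ± 0.38, adjusted p = 0.0447; 0.64, adjusted p = 0.387, without array 30; 0.95 and 0.91, adjusted p = 0.0872 and 0.0967, without control array 1 or 4, and 1.07, adjusted p = 0.0574, without array 2). Its naive readings were 7.52, 9.06, 7.83 and 9.08, high on the arrays where the macrophage and monocyte markers were high, and that list averaged over 12 on both transferred control arrays; its part in the change was not tested.

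Against naive cells directly, 4 genes rose and 1 (Pdk1) fell in transferred control cells, against 7.94% and 9.81% of all genes. After quantile normalization the split was 3 to 3, and under median centring 4 to 1. In the same comparison 10 of 11 T cell markers fell and 8 of 19 macrophage and monocyte markers rose, and their part was not tested. Pfkp rose by 0.35 ± 0.11 and Bnip3 by 0.50 ± 0.15 without overlap. Slc16a3 (10.54 on array 30 and 9.28 on array 32) rose by 1.07 ± 0.34 and Bnip3l (13 and 13.94) by 0.53 ± 0.17, both with overlap. The naive readings of Slc16a3 given above were higher on arrays 34 and 36 (9.22 and 9.45), where the macrophage and monocyte markers were high, than on arrays 33 and 35 (8.44 and 8.26); their part in its change was not tested. Bnip3l is abundant in maturing red cells, and 3 red cell markers averaged 8.58 on array 30 and 12.49 on array 32; without array 32 its change was 0.06 (adjusted p = 0.775). The second Bnip3 probe set changed by 0.21 (adjusted p = 0.456). Without array 30 Slc16a3 changed by 0.44 (adjusted p = 0.47) and Bnip3 by 0.30 (0.303), and without array 32 Pfkp changed by 0.21 (0.379). The count was 5 with all arrays and between 1 and 5 with 1 array left out, the 1 without naive array 33 and 3 without array 30 or 32. Without naive array 33, 34 or 36 in turn Pfkp changed by 0.33, 0.33 and 0.34 (adjusted p = 0.076, 0.0536 and 0.06). Bnip3 was also lost without naive array 33 or 36 (0.46 and 0.45), Bnip3l without 33, 35 or 36 (0.49, 0.56 and 0.53) and Slc16a3 without 33 or 35 (0.94 and 0.88), with adjusted p between 0.0543 and 0.1.

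Transferred Stat5ca cells stood above naive cells in a subset of genes. Against naive cells 10 of 34 genes rose and 2 fell, against 15.8% and 12.7% of all genes. The 10 were Pfkp (1.24 ± 0.09), Slc16a1 (0.87 ± 0.10), Pgk1 (0.82 ± 0.10), Tpi1 (0.79 ± 0.17), Slc2a1 (0.72 ± 0.17), Pgam1 (0.67 ± 0.17), Ndrg1 (0.66 ± 0.13), Hif1a (0.43 ± 0.10), Egln1 (0.34 ± 0.09) and Pfkl (0.31 ± 0.09); Pfkl missed the threshold without naive array 34 (0.28, adjusted p = 0.0556) or Stat5ca array 11 (0.27, 0.0647) or 14 (0.28, 0.0681). Egln3 and Pdk1 fell, Egln3 with a change of -1.41 counted from background and Pdk1 with -1.46 ± 0.13.

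**Figure D4:**
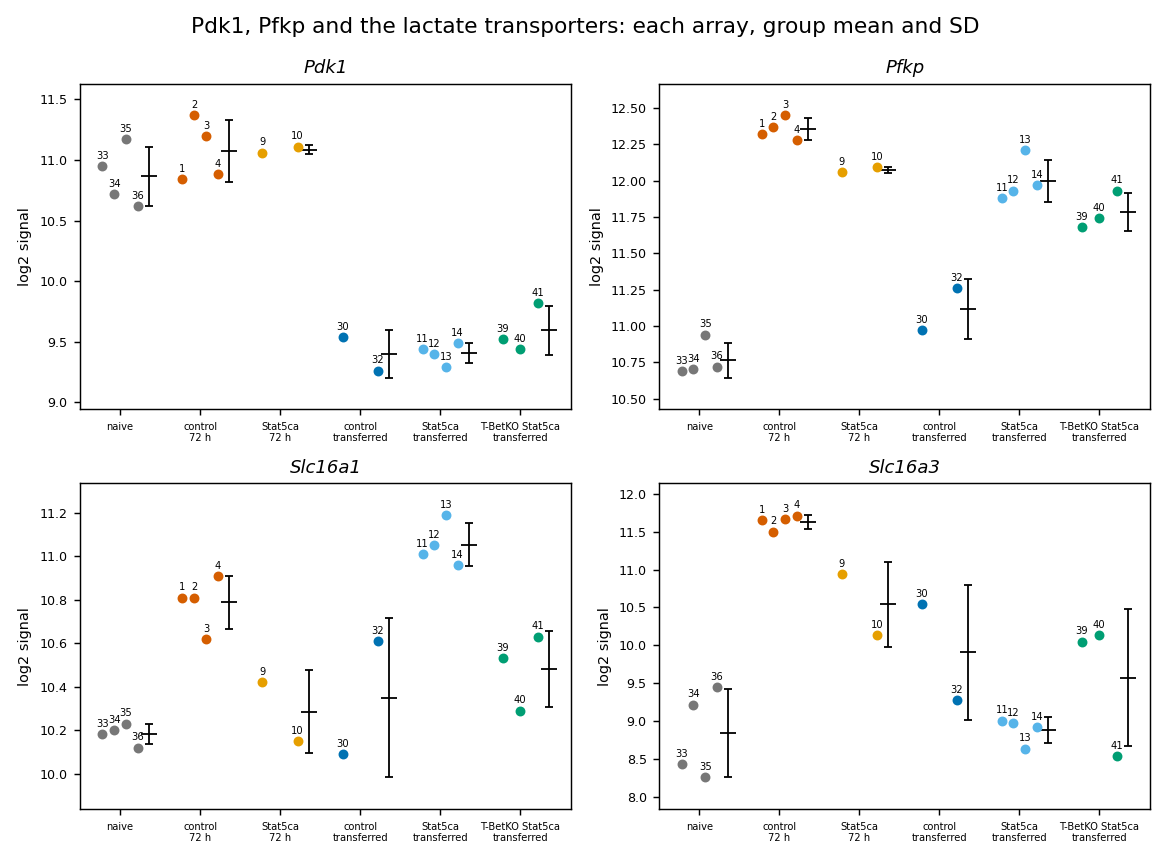
Points are single arrays, labelled by number, for Pdk1, Pfkp, Slc16a1 and Slc16a3; the vertical axis is the log2 signal and the bars are the group mean and SD (2 to 4 arrays a group). Pdk1 lies between 9.26 and 9.82 on all transferred arrays, and Slc16a1 is highest in transferred Stat5ca cells.

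The direct comparison of transferred Stat5ca and transferred control cells asked whether active Stat5 altered the cells that persisted in the hosts; it shares the control arrays 30 and 32 with the comparisons above. Of the 34 genes 6 rose and 2 fell, a share close to the 16.9% and 8.46% of all genes, and under quantile normalization the split was 6 to 3. Pfkp, the platelet-type phosphofructokinase, read 11.88, 11.93, 12.21 and 11.97 in Stat5ca cells against 10.97 and 11.26 in control cells (0.88 ± 0.11, adjusted p = 8.85e-05). Pgk1 read 12.01, 11.99, 12.01 and 11.97 against 11.28 and 11.11 (0.80 ± 0.13), and Slc16a1 read 11.01, 11.05, 11.19 and 10.96 against 10.09 and 10.61 (0.70 ± 0.13). These groups did not overlap.

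Egln1 rose by 0.57 ± 0.11, Higd1a by 0.45 counted from background (0.50 with its second probe set) and Ldha (13.20, 13.10, 13.03 and 13.15) by 0.31 ± 0.07. Without array 32 Ldha missed the threshold (0.26, adjusted p = 0.102), and Higd1a missed it without array 30 (0.41, 0.174) or 32 (0.57, 0.0642). Pfkfb4 (7.77, 7.85, 7.57 and 7.99) fell (-1.30 ± 0.38), as did Slc16a3 (9.01, 8.98, 8.64 and 8.92; -1.02 ± 0.34), but without array 30 these changes were -0.93 (adjusted p = 0.228) and -0.39 (0.561). Slc16a3 also missed the threshold without any 1 of the Stat5ca arrays 11 to 14 (-1.06, -1.06, -0.94 and -1.04, adjusted p between 0.0563 and 0.0837). Macrophage and monocyte markers were lower in the Stat5ca arrays, 9.40 to 10.27 against 12.08 and 12.26. T cell markers were higher, 12.46 to 12.50 against 11.93 and 11.74, and the part of either was not tested.

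Slc2a1 (12.11, 11.86, 11.61 and 11.82), Slc2a3 (11.15, 11.11, 11.16 and 11.15), Hk2 (8.46, 8.39, 7.95 and 8.5), Pfkfb3 (9.72 to 9.79), Hif1a (11.38, 11.44, 11.66 and 11.48) and Bnip3 (8.16, 8.31, 8.08 and 8.26) had no called change against transferred control cells. Pdk1 (9.44, 9.40, 9.29 and 9.49) was as low as in transferred control cells, a difference of 0.01 ± 0.16. Egln3 (7.04, 7.35, 6.82 and 7.52) straddled background. Of Hk1 the other probe set rose by 0.65 ± 0.10 (adjusted p = 0.000389), from 9.82 and 9.80 to 10.54, 10.46, 10.34 and 10.51, and the brighter did not (13.70 to 13.82). The further genes moved both ways, and the part of the lower macrophage and monocyte markers in their changes was not tested. Glycolysis, lactate and pyruvate genes rose in 4 and fell in 2 of 27, with Pdp1, a pyruvate dehydrogenase phosphatase gene, at 0.55 ± 0.08 and the hexokinase gene Hk3 at -1.51 ± 0.51. HIF pathway regulators rose in 6 and fell in 1 of 12, the fall being Epas1 (-0.79 ± 0.11). Hypoxia-response genes rose in 8 and fell in 4 of 27, with the transcription repressor gene Bhlhe40 at 1.29 ± 0.45 and the collagen lysyl hydroxylase gene Plod1 at -1.43 ± 0.30. Glucose-sensing and MYC-network factors rose in 4 and fell in 1 of 11, with Myc, a driver of glycolytic gene transcription, at 1.08 ± 0.16 and the arrestin-family gene Arrdc4 at -1.09 ± 0.23. Of 6 pentose phosphate genes the isomerase gene Rpia rose by 0.76 ± 0.10 and none fell.

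From the 72 h to the transferred Stat5ca cells, 23 genes fell and 2 rose, against 12.7% and 8.61% of all genes. Aldoc (8.27, 8.24, 7.97 and 8.28 after transfer) fell furthest (-4.50 ± 0.44), followed by Egln3 (-4.18 counted from background) and Bnip3 (-2.62 ± 0.15). Pdk1 (-1.68 ± 0.16), Hif1a (-1.36 ± 0.12) and Ldha (-0.33 ± 0.07) fell too, the last missing the threshold without array 9 (-0.29, adjusted p = 0.0717). Slc16a1 rose by 0.77 ± 0.13. Slc2a1 rose by 0.66 ± 0.21 with overlap through array 9, and by 0.16 (adjusted p = 0.708) without array 10; without Stat5ca array 11, 12 or 14 it was also lost (0.57, 0.65 and 0.67, adjusted p = 0.0849, 0.0638 and 0.0569).

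Whether the difference between Stat5ca and control cells was itself different after transfer and at 72 h was tested as an interaction. Macrophage and T cell marker levels also differed between Stat5ca and control arrays, and their part was not tested. For 10 of the 34 genes the Stat5ca difference was higher after transfer and for 0 lower, against 12.3% and 5.48% of all genes; 5 exceeded 1 log2 unit, against 3.24%. Slc2a1 differed by -0.91 at 72 h and 0.42 after transfer (1.32 ± 0.29, adjusted p = 0.00606), Slc16a1 by -0.50 and 0.70 (1.20 ± 0.18, adjusted p = 0.000514) and Pfkp by -0.28 and 0.88 (1.16 ± 0.15, adjusted p = 0.000247). For these genes every Stat5ca array was below every control array at 72 h and above them after transfer, although the 72 h difference of Pfkp and the transferred difference of Slc2a1 were not called on their own. Egln1 (1.03 ± 0.15), Pgk1 (1.02 ± 0.18), Higd1a (0.89 counted from background), Pfkl (0.93 ± 0.16), Pgam1 (0.89 ± 0.29), Bnip3 (0.78 ± 0.21) and Ldha (0.66 ± 0.11) completed the list. Pgam1, with adjusted p = 0.0483, missed the threshold when any 1 array was left out (0.78 without array 10, where adjusted p was highest at 0.186), and Bnip3 did so without array 10 (0.53, 0.126) or 32 (0.59, 0.112). The second Bnip3 probe set gave 0.47 (adjusted p = 0.314), that of Higd1a 0.65 (adjusted p = 0.0224), and the other Hk1 probe set 0.62 (adjusted p = 0.00724). Without control arrays 2 and 3 at 72 h, 9 genes were higher and 4 lower, the 4 being Aldoc (-1.59 ± 0.21), Egln3 (-1.08 ± 0.30), Eno2 (-0.68 ± 0.20) and Mxi1 (-0.60 ± 0.17). Without arrays 1 and 4 instead, 11 were higher and 0 lower, with Ankrd37 (1.74 ± 0.32) and Ndrg1 (0.72 ± 0.17) among them. Over all genes these fits called 4077 and 2733, against 3549 with all arrays.

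T-BetKO Stat5ca cells differed most from TCRP1A Stat5ca cells after transfer in Egln3. Of the 34 genes 5 rose and 4 fell, against 7.03% and 13.8% of all genes; under quantile normalization the split was 6 to 2 and under median centring 5 to 3. Egln3 read 10.13, 9.96 and 8.90 on arrays 39, 40 and 41, above every TCRP1A Stat5ca array, and rose by 2.37 counted from background (2.48 ± 0.33 as measured, adjusted p = 0.000194). Array 41, from day 54, was the lowest of the 3 and lay above the highest TCRP1A Stat5ca array, 7.52. All 3 arrays also lay above the naive readings of 8.60 to 8.76.

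Hk2 read 9.53, 9.76 and 8.78 against 7.95 to 8.5 (1.03 ± 0.26, adjusted p = 0.0119) and Bnip3 9.05, 9.11 and 8.41 against 8.08 to 8.31 (0.65 ± 0.16, adjusted p = 0.00875). Neither overlapped, but in both array 41 lay nearest the TCRP1A cells, and the second Bnip3 probe set changed by 0.37 (adjusted p = 0.139). Hif1a, at 12.18, 12.01 and 11.64, rose by 0.45 ± 0.13 with overlap, and Aldoa by 0.38 ± 0.11. Slc16a1 (10.53, 10.29 and 10.63) fell (-0.57 ± 0.12), as did Eno3 (-0.51 ± 0.16) and Egln1 (-0.35 ± 0.09), all without overlap. Hk1 fell with the brighter probe set (13.54, 13.47 and 13.65; -0.20 ± 0.07) and with the other (10.03, 9.90 and 10.25; -0.40). Higd1a was not called, while its second probe set fell (-0.54, adjusted p = 0.00294).

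Arrays 39 and 40 carried macrophage and monocyte markers at 12.08 and 11.98 and T cell markers at 11.99 and 11.86, against 10.43 and 12.41 on array 41. The part of this, of the day, of the labelling kit and of RNA quality was not tested. Without both arrays Hk2 changed by 0.45 (adjusted p = 0.563), Bnip3 by 0.21 (0.632), Hif1a by 0.15 (0.705), Aldoa by 0.10 (0.79), Slc16a1 by -0.43 (0.17), Eno3 by -0.31 (0.555), Egln1 by -0.29 (0.289) and Hk1 by -0.11 (0.627). The count of 9 was 3 without array 39 and 2 without array 40. Without array 39 the losses were Hk2 (0.94, adjusted p = 0.0547), Bnip3 (0.56, 0.0518), Hif1a (0.33, 0.109), Aldoa (0.31, 0.114), Eno3 (-0.45, 0.123) and Hk1 (-0.19, 0.105). Without array 40 they were Hk2 (0.83, 0.0885), Bnip3 (0.53, 0.0702), Hif1a (0.42, 0.0885), Aldoa (0.31, 0.14), Eno3 (-0.47, 0.134), Egln1 (-0.32, 0.0754) and Hk1 (-0.16, 0.196). Eno3 was also lost without Stat5ca array 11, 12 or 14 (-0.52, -0.48 and -0.48), Aldoa without array 14 (0.35) and Hk1 without any 1 of arrays 11 to 14.

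Slc2a1 (11.95, 11.92 and 12.15), Slc2a3 (10.92, 10.80 and 10.42), Pfkfb3 (9.65, 9.57 and 9.68), Ldha (13.23, 13.26 and 13.03) and Pdk1 (9.52, 9.44 and 9.82) had no called difference from TCRP1A Stat5ca cells. Ero1a rose by 0.84 ± 0.19. Of the HIF pathway regulators Epas1 rose by 2.12 ± 0.48 and Hif1an fell (-0.46 ± 0.10). Of the glucose-sensing and MYC-network factors Txnip fell (-0.86 ± 0.12) and Arrdc4 rose by 1.11 ± 0.27.

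Across the 6 groups the highest mean of a gene fell in control effector cells for 25 of the 34, against 16.8% of all genes, in Stat5ca cells at 72 h for 7, against 20.3%, and in transferred control (Pfkfb4) or transferred Stat5ca (Slc16a1) cells for 1 each, against 11.2% and 12.6%. The lowest mean fell in naive cells for 17, transferred control cells for 9, transferred Stat5ca cells for 5 and T-BetKO cells for 3, against 9.67%, 28.9%, 9.58% and 15.1% of all genes. For Pdk1 the order was Stat5ca and control cells at 72 h (11.09 and 11.07), naive cells (10.87), then T-BetKO, control and Stat5ca transferred cells (9.59, 9.40 and 9.40), with overlapping arrays within each of these 2 sets. For Egln3 the order was control (11.54) and Stat5ca (11.48) at 72 h, T-BetKO Stat5ca (9.66), naive (8.71), transferred control (7.69) and transferred Stat5ca cells (7.18). The first 2 and the last 2 of these did not differ beyond the spread of their arrays. The step from naive to transferred control cells was not called, although their arrays did not overlap, and T-BetKO cells were not tested against naive cells.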

How the data were processed

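Total RNA of 19 samples was hybridised to Affymetrix whole-transcript arrays. The deposited table holds log2 signals made by the authors with Affymetrix Expression Console, per the submitters' processing notes; for its version, summarization and background correction nothing was given in the sources used here. Of 35557 probe sets, 21789 were annotated to 1 gene, 1621 to several and 12147 to none. For each of 19938 genes the brightest probe set was kept.

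The 16 TCRP1A arrays, and all 19 for the comparison with T-BetKO cells, were fitted in limma 3.58.1 (R 4.3.3) with 1 mean per group and moderated variances, giving 9 contrasts, after a test on simulated data. Calls use adjusted p under 0.05. A level under background, 7.30, is set to it where a change is counted from background. Arrays per group are 2 to 4, which limits precision.

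Per-array values are given for 10 genes in every comparison and for the 3 largest rises and falls without overlap. From other lists, the genes with the largest rise or fall were named. Those genes and Ero1a were not followed under the alternatives below. The members and lists were chosen with earlier results of these data known. Alternatives were quantile normalization, median centring, a filter on dim genes, the mean of probe sets, array weights, an intensity trend in the variance, fits of the compared groups alone, and arrays left out; a split of the 72 h control arrays and a fit of single probe sets were added after seeing the data. Promoters were searched for motifs on both strands.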

Additional observations from a re-analysis of the deposited data

Results flagged for a closer look

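In 102 groups of 4 arrays, 4 held an array far from the other three, where chance alone marks about 1 in 20. Pfkp read 10.94 on naive array 35 against 10.69 to 10.72 on the others. In transferred Stat5ca cells, Aldoc read 7.97 on array 13 against 8.24 to 8.28, Vegfa read 8.06 on the same array against 8.29 to 8.34, and P4ha2 read 7.34 on array 11 against 7.09 to 7.12. Red cell markers averaged 8.09 on array 13 and 10.25 to 10.29 on arrays 11, 12 and 14. Macrophage and monocyte markers averaged 9.40 on array 13 and 10.17 to 10.27 on the same others. The part of either was not tested.

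The Stat5ca difference was higher after transfer than at 72 h, by an interaction term in limma, for Slc2a1 (1.32 ± 0.29), Slc16a1 (1.20 ± 0.18), Pfkp (1.16 ± 0.15), Egln1 (1.03 ± 0.15), Pgk1 (1.02 ± 0.18), Higd1a (0.93 ± 0.20), Pfkl (0.93 ± 0.16), Pgam1 (0.89 ± 0.29), Bnip3 (0.78 ± 0.21) and Ldha (0.66 ± 0.11). Stat5ca cells at 72 h carry the GFP+ label and transferred ones do not, so sorting and time cannot be told apart here.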

How the results depend on the processing

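Over 186 gene values and their alternatives, 2759 of 2964 values kept their side of the threshold. Of the 2759, 53 changed sign without a call in either fit. Another 173 lost the call, 30 gained one, and 2 uncalled values changed sign and gained a call. The 2 were Hk1 in transferred control cells with its probe sets averaged, at -0.26 against naive and -0.47 against 72 h. For Stat5ca against control at 72 h, 7 members were called; array weights gave 14, leaving out control arrays 1 and 4 gave 4, and leaving out 1 array gave 0 to 8. For transferred control against naive cells, 5 were called; the fit of these groups alone gave 2, without naive arrays 34 and 36 it was 9, without 33 and 35 it was 2, and with 1 array left out 1 to 5. For transferred Stat5ca against control cells, 8 were called, and 14 in the fit of these groups alone. For T-BetKO against TCRP1A Stat5ca cells, 9 were called; array weights gave 17, without arrays 39 and 40 it was 1, and with 1 array left out 2 to 12. Calls over all 19938 genes moved with these fits. Stat5ca against control at 72 h had 1140, 4604 with array weights, 329 without control arrays 1 and 4, and 591 to 1794 without 1 control array. Transferred control against naive cells had 3538, and 323 in the fit of these groups alone. That comparison had 5767 without naive arrays 34 and 36 and 1718 without 33 and 35. Transferred Stat5ca against control cells had 5058, and 6735 in the fit of these groups alone. T-BetKO against TCRP1A Stat5ca cells had 4155, 6870 with array weights, 2614 without array 39 and 1790 without array 40. Where leaving out an array left 1 in a group, that array was assumed to vary like the others. No paired analysis was possible because no array number is shared between groups. Other background corrections and a scan date were not run, since the values are already processed. Genes near background, such as P4ha2, Eno2 and Higd1a, have changes that the array can understate.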
